A study of Mus musculus with 2 samples.

Results

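The genes described are the receptors for glutamate and GABA, the main excitatory and inhibitory transmitters of the brain. They were taken by symbol from the list of 40276 features of the deposited counts: the AMPA (Gria), kainate (Grik), delta (Grid) and NMDA (Grin) subunits, the metabotropic glutamate receptors (Grm), the GABA-A subunits (Gabra, Gabrb, Gabrg, Gabrd, Gabre, Gabrp, Gabrq and Gabrr) and the GABA-B subunits (Gabbr). All 47 genes that match were kept, 26 for glutamate and 21 for GABA. They were measured in a brain section and a heart section of normal mice, each 5 µm thick and cut from formalin-fixed, paraffin-embedded tissue. Total RNA was copied with random primers and read out over an array of barcoded spots, and both samples carry the same treatment note, that the reverse transcription primer lacked the barcode called cell barcode 2. Strain, age and sex of the animals were not among the labels used here. Each tissue had 1 library, so no value below has a replicate, no test was possible and every interval covers counting error only.

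Ionotropic glutamate receptors are cation channels built of 4 subunits. AMPA receptors carry fast excitation, NMDA receptors pass calcium when glutamate binds a depolarised cell, kainate receptors act on both sides of the synapse, and delta subunits organise synapses. Metabotropic glutamate receptors couple to G proteins, group I to phospholipase C and groups II and III to inhibition of adenylate cyclase. GABA-A receptors are chloride channels of 5 subunits, usually alpha and beta chains with a gamma or delta chain, while GABA-B receptors are G protein-coupled pairs of Gabbr1 and Gabbr2.

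After spots with fewer than 500 counts or 200 detected features were left out, the brain library held 4080 spots and 37143546 counts and the heart library 3726 spots and 44613867 counts. Median depth was 5981 counts per spot in brain and 9049.5 in heart. The array's list of 4992 barcodes was the same in both libraries, and 3342 barcodes were kept in both. Ribosomal RNA made up 32.9% of the kept counts in brain and 51.3% in heart. Levels are given as CPM, counts per 1000000 kept counts. Tissue labels and markers went together: the 16 genes of the pan-neuronal list summed to 4620 CPM in brain and 201 in heart, each being higher in brain, and the 8 cardiomyocyte genes to 33.0 and 23425 CPM, each being higher in heart. A spot can hold several cells, and in summed spots fewer cells of a type and less RNA per cell cannot be told apart.

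The receptor genes together gave 423798 counts in brain, 1.14% of the library or 11410 CPM, and 65928 counts in heart, 0.148% or 1478 CPM. Glutamate receptor genes made up 8526 CPM and GABA receptor genes 2884 CPM of the brain total. A gene was called higher in a section when its CPM there was at least 20 and at least 4 times the CPM of the other section. By this rule 25 of the 47 were higher in brain, against 17.2% of the 6345 features that reached 20 CPM in either section. None of the 47 was higher in heart, against 5.41% of those features. Of the receptor genes, 33 reached 20 CPM in a section, so 8 of these were not called, and 14 stayed under 20 CPM in both. Their median log2 ratio of brain over heart was 2.43, beside 0.43 over the 11925 features that averaged 5 CPM or more. Leaving ribosomal, mitochondrial and small structured RNA out of the totals lowered the median of all features by 0.61 on the log2 scale, to -0.18, and that of the receptor genes to 1.82. Under that total 19 were called, and the 6 that lost the call were Gabra3, Gabra5, Gabrg3, Grid1, Grik5 and Grm3.

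**Figure D1:**
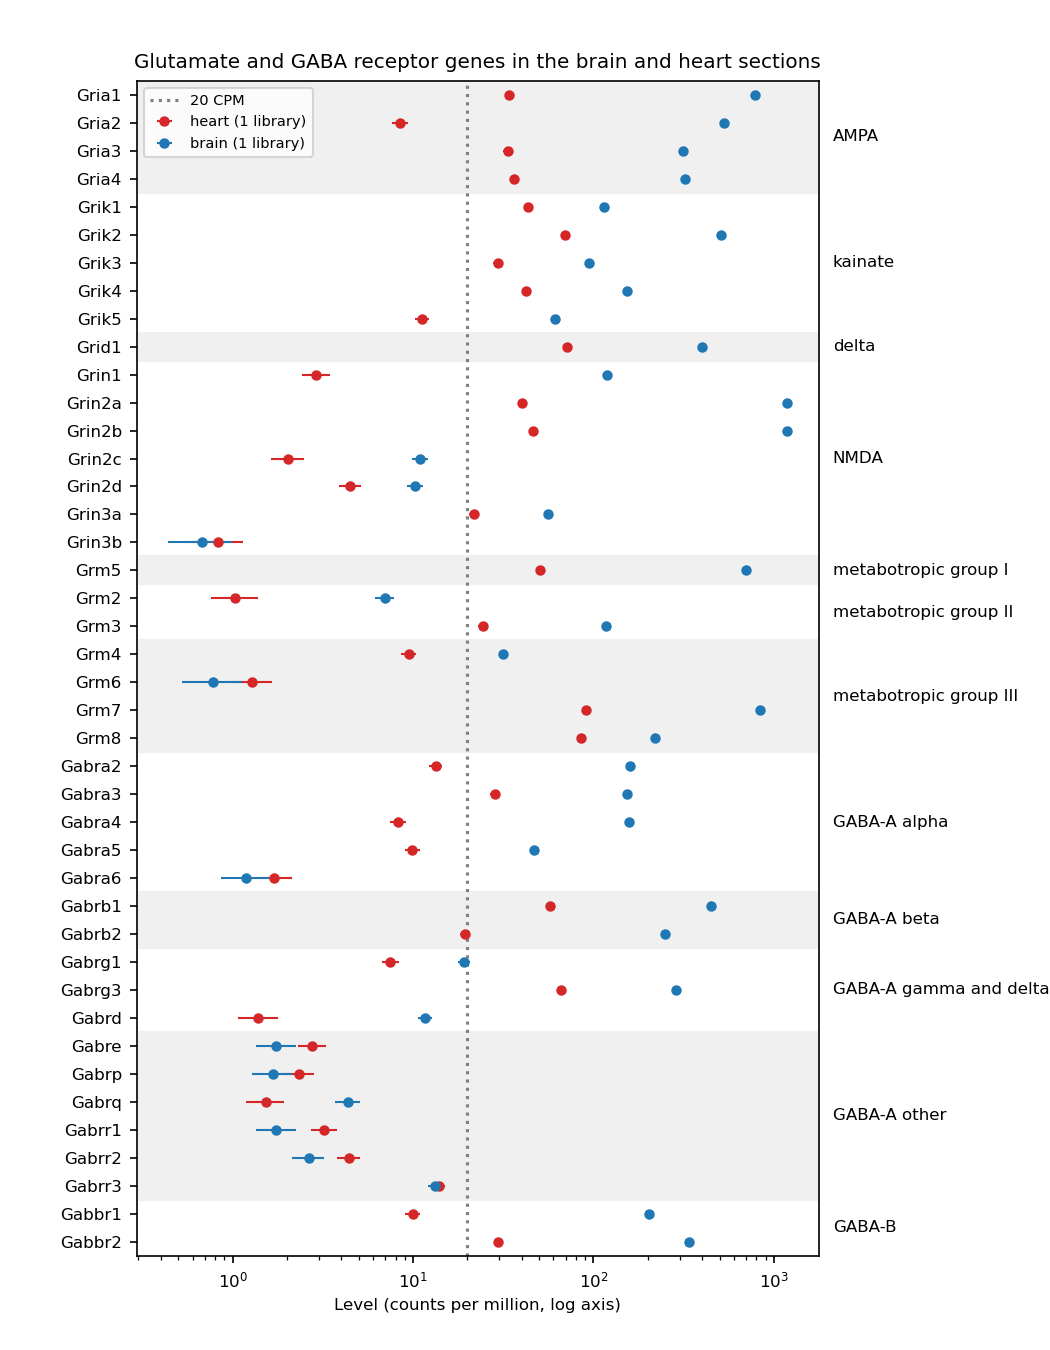
Level of 42 of the 47 receptor genes in CPM (log axis) in the brain library (blue) and the heart library (red), grouped by receptor family, with bars for the exact 95% Poisson interval, which covers counting error only. Most genes sit to the right in brain, Gabrr3 lies close together in both sections (13.2 and 13.9 CPM), and the GABA-A subunits Gabre, Gabrp, Gabrr1 and Gabrr2 lie under 5 CPM in both.

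All 4 AMPA subunits were higher in brain. Gria1 stood at 788 CPM in brain and 34.0 in heart, a ratio of 23.2 (95% interval 22 to 24.4). Gria2, the subunit whose edited form keeps calcium out of the channel, had the largest ratio of the 47 genes. It gave 530 CPM in brain and 8.45 in heart, a ratio of 62.8 (56.7 to 69.7). Gria3 had 313 and 33.4 CPM and Gria4 322 and 36.3 CPM, ratios of 9.37 and 8.88. Spots with at least 2800 counts were thinned to 2800. Of these, 62.0% of 3060 in brain held a Gria2 count (60.3 to 63.7%), beside 1.84% of 2939 in heart.

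Of the 7 NMDA subunits, 3 were called. Grin1, the obligatory subunit, gave 118.5 CPM in brain and 2.91 in heart, a ratio of 40.7 (34.2 to 48.8). Grin2a and Grin2b, which bind glutamate and set the channel's kinetics, were the most abundant of all receptor genes by count. They had 1185 and 1184 CPM in brain and 40.4 and 46.3 CPM in heart, ratios of 29.4 (28 to 30.8) and 25.6 (24.4 to 26.7). Grin3a had 56.2 and 21.7 CPM and missed the call with a ratio of 2.60. Grin2c and Grin2d, at 10.9 and 10.3 CPM in brain, and Grin3b, at 0.673 CPM, stayed under 20 CPM in both sections.

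Gria2 and Grin1 had the highest ratios and are textbook targets of the repressor REST, which holds neuronal genes silent elsewhere through a motif known as RE1. Their promoters are therefore shown beside those of Gabrr2 and Gabra6, which had 2.64 and 1.19 CPM in brain and 4.39 and 1.70 CPM in heart. Each runs 5′ to 3′ on the strand of the gene, from 250 bases before to 50 after the start (RefSeq, GRCm38.p6), and capitals mark each CG pair. Gria2 lies at chr3:80802786-80803085, minus strand, and Grin1 at chr2:25319138-25319437, minus strand. Gabrr2 lies at chr4:33062862-33063161, plus strand, and Gabra6 at chr11:42321023-42321322, minus strand.
Gria2: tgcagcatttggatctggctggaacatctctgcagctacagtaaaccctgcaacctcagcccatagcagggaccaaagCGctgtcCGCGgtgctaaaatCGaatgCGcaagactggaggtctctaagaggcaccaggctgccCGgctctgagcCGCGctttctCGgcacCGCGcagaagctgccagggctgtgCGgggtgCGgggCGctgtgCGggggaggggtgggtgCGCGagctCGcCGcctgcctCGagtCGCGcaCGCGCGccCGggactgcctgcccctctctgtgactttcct
Grin1: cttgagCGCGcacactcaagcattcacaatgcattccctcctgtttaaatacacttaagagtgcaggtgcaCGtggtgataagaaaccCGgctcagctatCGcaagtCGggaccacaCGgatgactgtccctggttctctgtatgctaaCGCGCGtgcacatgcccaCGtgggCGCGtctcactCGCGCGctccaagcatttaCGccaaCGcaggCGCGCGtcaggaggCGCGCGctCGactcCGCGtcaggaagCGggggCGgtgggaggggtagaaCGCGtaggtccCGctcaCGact
Gabrr2: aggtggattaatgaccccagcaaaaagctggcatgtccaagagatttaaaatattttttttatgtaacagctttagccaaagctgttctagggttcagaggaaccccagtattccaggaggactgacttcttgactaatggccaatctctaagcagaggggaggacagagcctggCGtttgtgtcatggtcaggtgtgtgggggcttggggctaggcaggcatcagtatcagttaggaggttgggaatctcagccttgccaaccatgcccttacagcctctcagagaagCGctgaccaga
Gabra6: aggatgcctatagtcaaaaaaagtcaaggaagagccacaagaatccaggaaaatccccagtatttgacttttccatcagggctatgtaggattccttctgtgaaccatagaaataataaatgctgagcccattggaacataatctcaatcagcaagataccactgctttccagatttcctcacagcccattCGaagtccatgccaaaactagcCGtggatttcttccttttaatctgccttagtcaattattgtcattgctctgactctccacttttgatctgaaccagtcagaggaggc
There were 26 CG pairs in the Gria2 window and 33 in the Grin1 window, and 2 each in the Gabrr2 and Gabra6 windows. The table held promoters for 32 of the 47 genes, and its median over all promoters was 7 CG pairs. Where a gene had several promoters, the one with the most pairs was counted. The 16 genes called higher in brain with a promoter had a median of 16 (0 to 46). The 7 genes at or under 2 times the background density given below had a median of 4 (2 to 24), and these ranges overlap. Gabrr2 and Gabra6 had the fewest CG pairs of these 7, and Gabre had the most, 24. Gabra3, which was called higher in brain, had 0. The core of RE1, written as CACC, any 2 bases and GGACAG, was searched on both strands. It occurs in 0.183% of the 32851 promoters (60) and in 1 of the 39 promoters of receptor genes, that of Gria2, as CACCGCGGACAG on the reverse strand. The Grin1 window shown holds no match. A match in letters is a description and shows no binding.

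Among kainate subunits Grik2 and Grik5 were called. Grik2 had 508 CPM in brain and 69.2 in heart, a ratio of 7.34 (7.06 to 7.63), and Grik5 had 60.9 and 11.2 CPM, a ratio of 5.42 (4.92 to 5.99). Grik1 (114 and 43.1 CPM), Grik3 (94 and 29.4) and Grik4 (154 and 42.5) had ratios between 2.64 and 3.64 and were not called. Their heart levels lay at 1.15 to 1.52 times the background density given below. Of the delta subunits, Grid1 was called, with 399 and 71.4 CPM and a ratio of 5.59 (5.38 to 5.81).

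Of the metabotropic receptors, Grm5, a group I receptor, had 701 CPM in brain and 50.5 in heart, a ratio of 13.9 (13.3 to 14.5). In group II, Grm3, also a receptor of astrocytes, had 118 and 24.3 CPM (ratio 4.86), while Grm2 stayed at 6.97 CPM in brain. In group III, Grm7, a presynaptic receptor, had 838 and 90.8 CPM and a ratio of 9.23 (8.93 to 9.54). Grm8 (219.6 and 84.8 CPM) and Grm4 (31.6 and 9.44 CPM) had ratios of 2.59 and 3.35 and were not called. In heart they lay at 1.14 and 1.10 times the background density given below. Grm6, the receptor of retinal ON bipolar cells, gave 29 counts in brain and 57 in heart.

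Among GABA-A subunits 10 were called. The alpha chains Gabra2, Gabra3 and Gabra4 had 158.7, 153.5 and 157.5 CPM in brain and 13.3, 28.4 and 8.23 CPM in heart. Their ratios ran from 5.40 for Gabra3 to 19.2 for Gabra4. Gabra5 had 47 and 9.91 CPM and a ratio of 4.74 (4.27 to 5.28), and Gabra6, the chain of cerebellar granule cells, gave 44 counts in brain and 76 in heart. Of the beta chains, which help form the GABA site, Gabrb1 had 449.9 and 57.1 CPM (ratio 7.87) and Gabrb2 249.7 and 19.4 CPM (12.9). Gabrg3, a gamma chain, had 286 and 65.7 CPM (4.36).

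Gabrg1 (19.2 and 7.49 CPM) and Gabrd (11.7 and 1.39 CPM) were under 20 CPM in both sections. None of the 6 remaining GABA-A subunits was called. Gabrr3 had 13.2 and 13.9 CPM, Gabrq 4.36 and 1.52 CPM, and Gabre, Gabrp, Gabrr1 and Gabrr2 between 1.67 and 4.39 CPM in either section. Both GABA-B genes were called. Gabbr1, the ligand-binding subunit, had 204 and 9.93 CPM and a ratio of 20.6 (18.7 to 22.7). Gabbr2, the subunit that couples to the G protein, had 338 and 29.6 CPM and a ratio of 11.4 (10.8 to 12.1). Over all families, 13 of 26 glutamate and 12 of 21 GABA receptor genes were called. The ratio was over 1 for 39 genes and under 1 for 8, and 9 were under 1 with ribosomal, mitochondrial and small structured RNA outside the total. The share of thinned spots with a count was higher in brain for 37 of the 47, with intervals apart, and higher in heart for none.

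Many receptor genes are long, for example 921.6 kb for Grm7, and levels in heart went with length. Across the 47 genes, Pearson's r between log10 counts and log10 gene span was 0.966 in heart and 0.852 in brain, a description of genes within a single library each. As a yardstick, the summed counts of 1550 olfactory and vomeronasal receptor genes, best known from the sensory cells of the nose, were divided by their span. This background density was 0.0669 CPM per kb in brain and 0.0865 in heart. In heart, 4 receptor genes exceeded 2 times that density, among them Gabbr1 at 3.95 times, Gabrr3 at 2.82 and Grik5 at 2.08. Beside this stood 37.2% of the 32434 features with a known span outside ribosomal, mitochondrial and small structured RNA. The median over the 47 genes in heart was 1.15 times. In brain, 40 of the 47 exceeded 2 times the density, beside 45.3% of the same features, and 23 exceeded 10 times, with a median of 9.04.

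The highest brain values were 105 times the density for Gabbr1, 65.3 for Gria2 and 63.3 for Grin1. The 7 genes at or under 2 times in brain were Gabra6, Gabre, Gabrp, Gabrr1, Gabrr2, Grin3b and Grm6. With the density subtracted from both sections, 32 genes were called. Heart levels of the other 43 genes thus lay at or under 2 times the density of the heart library.

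**Figure D2:**
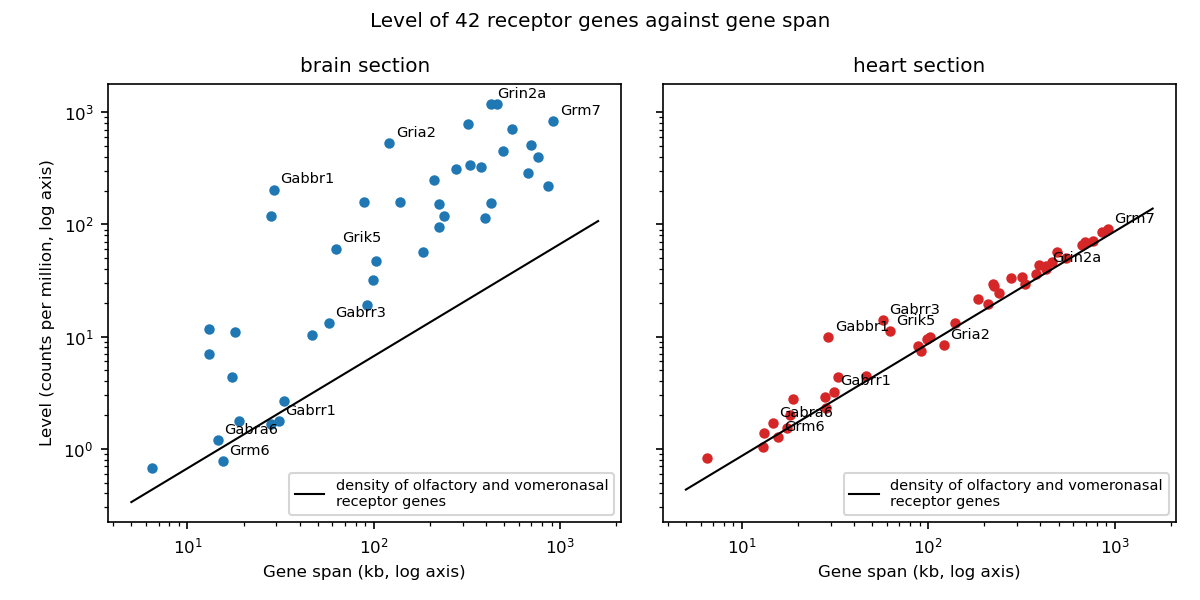
Level in CPM against gene span in kb (both log axes) for 42 of the 47 receptor genes, brain left and heart right, with the line giving the density of olfactory and vomeronasal receptor genes in that section. In heart most points follow the line and Gabbr1 stands at 3.95 times it, while in brain Gabbr1 stands at 105 times and Gria2 at 65.3 times the line.

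Which subunit leads its family depended on the length used, since levels of different genes can be compared only per length. Per kb of exon, Gria1 made up 52.7% of the AMPA family in brain, Grin2a 49.2% of NMDA and Gabbr2 65.8% of GABA-B. Per kb of gene span the leaders were Gria2 with 49.6%, Grin1 with 39.1% and Gabbr1 with 87.3%. Of the 12 families, 4 kept their leader, among them delta (Grid1), group I (Grm5) and group III (Grm7). Ratios between regions of the brain, where a gene's own length cancels apart from background counts, are given below.

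Brain spots were grouped into 11 regions from 2000 variable genes, with receptor genes, their partner genes and all marker lists left out. A region is named here by its number and leading genes. For each, CPM was compared with the remaining brain spots, and a gene was called at 1.5-fold or more in either direction, with at least 10 CPM in the higher group and a 95% interval that excludes 1. Regions are groups of spots in 1 section, so these differences have no replicate. Median depth was 25330 to 46271 counts per spot in regions 8 to 11 and 1349 to 9514 in regions 1 to 7, and the part of depth was not tested. In the annotation Gabra4 overlaps Gabrb1 on the opposite strand, so counts in the shared stretch cannot be assigned to either gene if strand was not used. At least 1 region was higher for 35 of the 47 genes and lower for 36, and 9 were called nowhere. Gabra3 and Gabrr3 were the most even of the 40 genes that reached 10 CPM in a region. Their highest region was 1.71 and 1.73 times the lowest, with Gabra3 between 107 and 183 CPM. Gabrd ranged most among genes with a count in every region, from 0.871 to 38.3 CPM.

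Region 3 (653 spots, led by Shox2, Prkcd and Slitrk6) had 5.41 times the summed thalamus markers of other spots. There 10 of 38 genes were higher (9.61% of 8890 features) and 13 lower (18.8%). Gabra4 and Gabrd, chains of the extrasynaptic GABA-A receptor that carries tonic inhibition, stood together. Gabra4 had 453 CPM against 109 in other spots (4.17-fold, 3.96 to 4.40) and Gabrd 38.3 against 7.25 (5.29-fold, 4.35 to 6.41). Grm4 was higher by 6.38-fold (114 against 17.9 CPM) and Grin2c by 5.16-fold (35.5 against 6.87 CPM). Low there were Gria1, at 0.199 times other spots (177 against 889 CPM), Gabra5 at 0.249, Gabra2 at 0.278 and Gria2 at 0.353. The pan-neuronal list was 1.04, the excitatory neuron list 0.546 and the inhibitory neuron list 0.208 times other spots there, and their part in the calls was not tested.

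Region 4 (542 spots, led by Pmch, Hcrt and Avp, with hypothalamus markers at 6.60 times) was high in the GABA-A subunits Gabrq and Gabrg1. Of 39 genes tested, 6 were higher (9.47% of 9043 features) and 11 lower (9.84%). Gabrq, the theta chain, had 27.0 CPM against 1.17 (23.1-fold, 16 to 34.2). Gabrg1 had 66.7 against 12.5 CPM (5.34-fold). Grin2d was 2.27-fold higher. The epsilon chain Gabre, near the background density over the whole section, gave 36 of its 65 brain counts there. That is 7.84 CPM against 0.891, under the minimum of 10 CPM, and 6.60 times the background density of this region. Gabrd was lowest, at 0.0661 times other spots, followed by Grin2a at 0.209 (274 against 1314 CPM), Gabra4 at 0.347 and Grin2c at 0.387.

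Regions 8 and 9 shared high Gria1, Grin2a and Gabra5. Region 8 (132 spots, led by Cabp7 and Neurod6) had 6.24 times the hippocampal pyramidal markers. In it 9 of 38 genes were higher (7.20% of 8801 features) and 14 lower (20.9%). Gabra5 had 118 against 35.9 CPM (3.27-fold, 2.96 to 3.62), Gria1 1831 against 624 (2.93-fold), Grin2a 2527 against 975 (2.59-fold) and Grik4 301 against 131 (2.30-fold). Grm4, Grik3, Grm8 and Gabrg1 were at 0.272 to 0.290 times other spots.

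Region 9 (60 spots, led by Dsp and Maml2, dentate gyrus markers at 8.03 times) had the highest summed receptor level, 18015 CPM. Of 39 genes tested there, 15 were higher (21.8% of 9420 features) and 13 lower (12.5%). Its spots were also the deepest, with a median of 46271 counts, and the lowest in ribosomal RNA, 23.8%. The part of these in the summed level was not tested. Gria1 reached 2266 CPM against 658 (3.44-fold) and Grin2a 2882 against 1037 (2.78-fold). Grm2, a presynaptic receptor of dentate granule cells, had 28.4 CPM against 5.09 (5.58-fold, 4.25 to 7.27), and no other region called it. Gabra5 was 2.69-fold higher, and Gabrg3, Grm4, Gria4 and Gabrg1 were at 0.328, 0.351, 0.364 and 0.416 times other spots.

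Region 7 (161 spots, led by Penk and Adora2a) had 6.78 times the striatum markers and the highest quotient of glutamate over GABA receptor CPM, 4.31. There 9 of 38 genes were higher (8.14% of 8961 features) and 11 lower (13.8%). Gabrg3 had 677 against 274 CPM (2.47-fold, 2.30 to 2.66), Grm5 1525 against 675 (2.26-fold, 2.15 to 2.37) and Grik2 975 against 493 (1.98-fold). Grin2d at 0.247, Gabbr2 at 0.264 (91.4 against 346 CPM) and Grik1 at 0.352 times other spots were among the lower.

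Region 1 (933 spots, led by Lamp5, Dpp10 and Hs3st2) had 2.31 times the upper cortex markers. Of 38 genes, 5 were higher (4.43% of 8749 features) and 9 lower (8.24%). Grm8 (333 against 178 CPM), Grm3 and Grik3 were 1.72- to 1.86-fold higher. Gabrg1, Grm4 and Gria1 were at 0.492 to 0.513 times other spots. Region 10 (58 spots, led by Igfn1 and Rprm) had 3 of 38 higher (5.62% of 8766 features) and 13 lower (14.6%). Grik1 had 238 against 106 CPM there (2.25-fold, 2.05 to 2.46), and Grik5 and Gabra2 were 1.57- and 1.51-fold higher. Grm4, Grin2d, Grik3 and Grik4 were at 0.233 to 0.314 times other spots.

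In the remaining 4 regions few receptor genes were higher. Region 5 (346 spots, led by Mobp and Cldn11, myelin list at 10.3 times) had 3 of 38 higher (12.4% of 9203 features) and 23 lower (11.4%). Its higher genes were Grm3, 295 against 110 CPM (2.67-fold, 2.41 to 2.94), Grin2c (1.95-fold) and Grik3 (1.64-fold). Grin2a, Gria1, Gabra5 and Gabra4 were at 0.277 to 0.363 times other spots, where the pan-neuronal list was 0.902 and the excitatory neuron list 0.295 times other spots. The inhibitory neuron list was 3.38 times and the oligodendrocyte precursor list 3.68 times other spots there, and the part of these lists was not tested. At the coarser resolution of 0.3 the nearest group of spots (overlap 0.378, as shared spots over spots in either) had Grin2c at 0.722 and Grm3 at 1.21, so the higher calls of region 5 did not hold in it. Region 6 (248 spots, led by Ptgds, Thbd and Fmod) had 33.7 times the meninges and fibroblast markers and 0.424 times the pan-neuronal list. There 1 of 38 was higher, Gabrg1 at 1.63-fold (31.0% of 10455 features), and 24 lower (14.7%), among them Grin2a, Gria1 and Gria2 at 0.286 to 0.311 times. Per pan-neuronal count these 3 became 0.674 to 0.733 times, and the summed receptor genes 2.80 per pan-neuronal count, beside 2.46 in other spots. The background density of region 6 was the highest of the 11 regions, 0.146 CPM per kb beside 0.0669 over the whole section. It was not subtracted from these values or from the fold of Gabrg1, and its part in them was not tested.

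Region 11 (50 spots, led by Ttr and Sostdc1 and by Gpr151, a gene of the habenula) had 67.6 times the choroid plexus markers and 0.546 times the pan-neuronal list. It had 3 of 38 genes higher (18.9% of 9718 features) and 24 lower (14.3%). Both GABA-B genes were higher, Gabbr1 with 575 against 189 CPM (3.04-fold, 2.82 to 3.26) and Gabbr2 with 669 against 324 (2.06-fold), together with Grin3a (1.92-fold). Of the lower genes, Grin2b, Gabra4 and Gria3 were at 0.147 to 0.156 times. Region 2 (897 spots, led by Ndnf, Col1a2 and Col1a1) was shallow, with a median of 1349 counts, and had 3.10 times the meninges and fibroblast markers. It had 1 of 38 higher, Gabrg1 at 1.64-fold (7.80% of 9230 features), and 5 lower (3.54%), among them Gabra4, Grin2a and Gabbr2 at 0.609 to 0.655 times. Among spots with at least 1000 counts and 400 features the nearest group (overlap 0.406) had Gabrg1 at 0.889 times, in the other direction, and Gabra4, Grin2a and Gabbr2 at 0.685 to 0.817 times, short of a call.

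**Figure D3:**
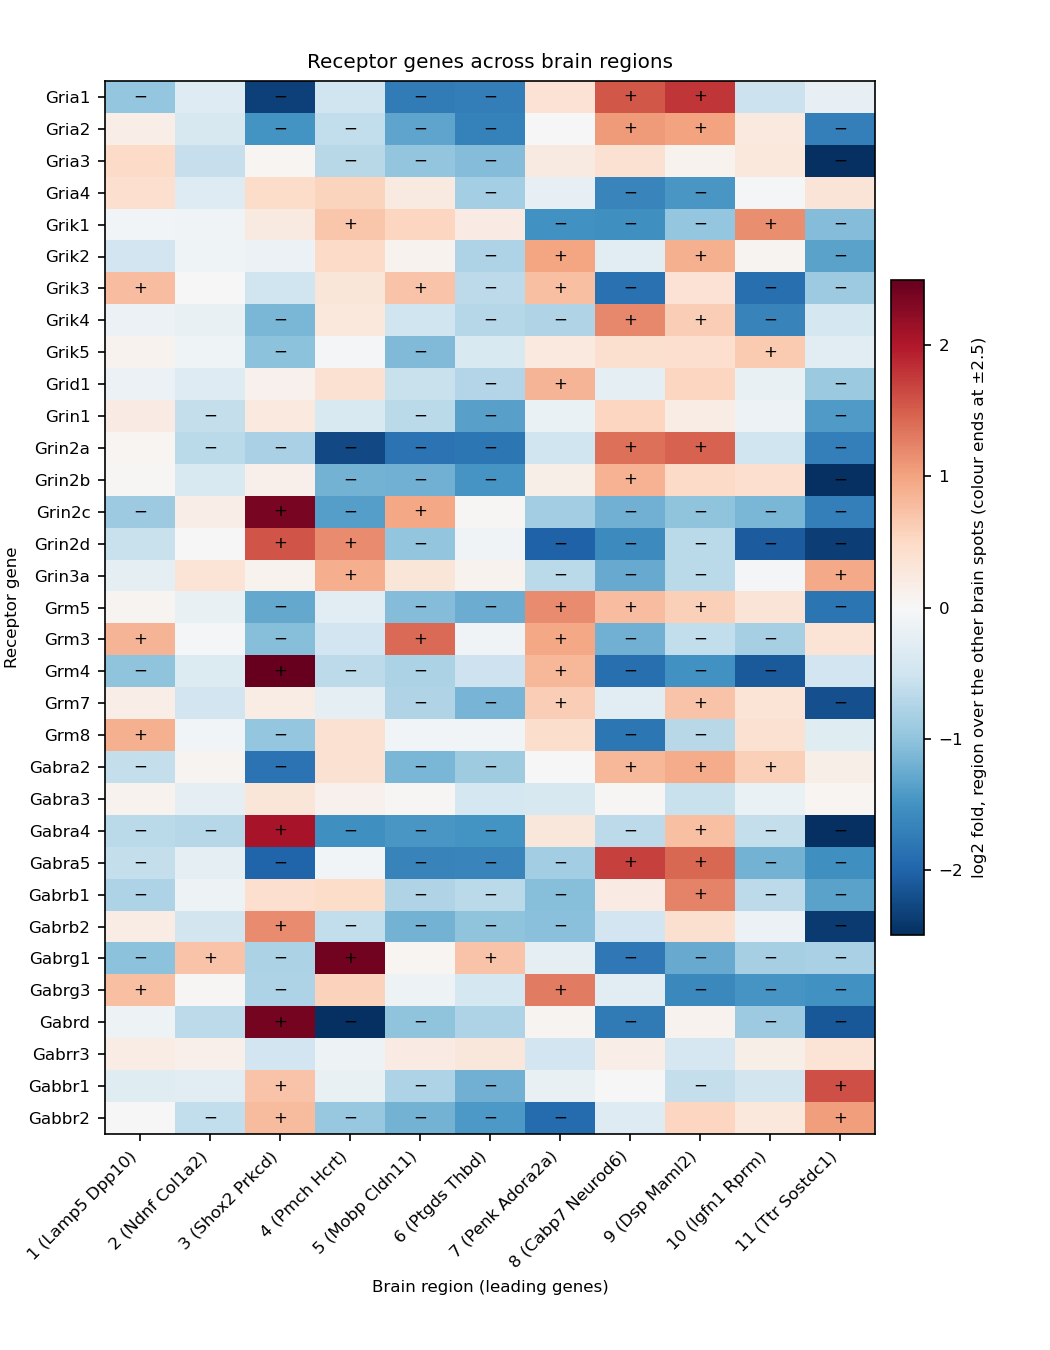
Log2 fold of each brain region over the other brain spots (colour, ends at ±2.5) for 33 of the 38 receptor genes with at least 10 CPM over the brain section, with + and − for genes called higher and lower. Gabra4, Gabrd, Grm4 and Grin2c are high in region 3, Gabrg1 in region 4, and Gria1, Grin2a and Gabra5 in regions 8 and 9.

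Because the quotient of 2 genes' counts within a region is free of scaling, 3 pairs of subunits were followed. A gene's own length cancels when quotients are compared between regions, but background counts that grow with span do not. The background density ran from 0.0512 CPM per kb in region 7 to 0.146 in region 6 and was not subtracted here. Over the whole section Grin2a and Grin2b had equal counts (quotient 1, 0.988 to 1.01). The quotient was lowest in region 4 (0.491, 0.458 to 0.525) and high in regions 8 (1.30), 9 (1.80) and 11 (2.07, 1.78 to 2.41). Gria1 over Gria2 was 1.49 in the whole section, under 1 in regions 1 (0.806), 3 (0.860) and 10 (0.890), and 2.31 in region 9 and 4.11 in region 11.

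Gabbr1 over Gabbr2 was 0.605 in the whole section. It ran from 0.294 (0.263 to 0.328) in region 9 to 1.96 (1.54 to 2.51) in region 7, the one region of the 11 where Gabbr1 gave more counts than Gabbr2. The next highest was region 4 at 0.979 (0.889 to 1.08), an interval that includes 1. Gabbr2 had the fewest counts of these 6 genes in region 7, 105, beside 206 for Gabbr1. Gabbr1 spans 29.1 kb and Gabbr2 329.6 kb, so at a given background density Gabbr2 collects more background counts. The part of background in these quotients was not tested.

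**Figure D4:**
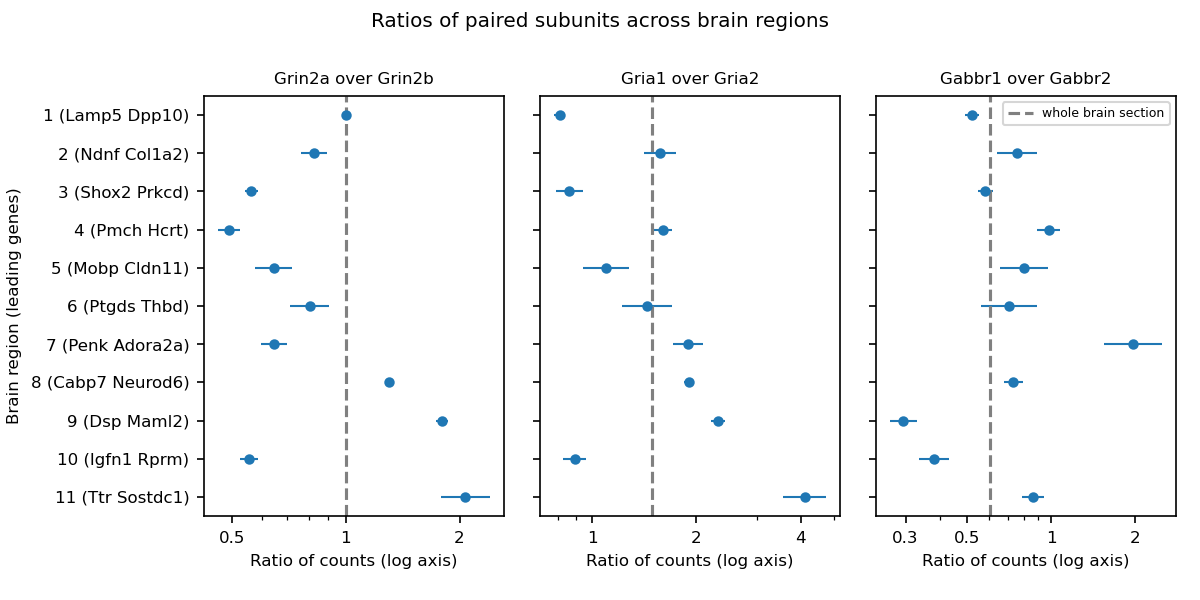
Quotient of the counts of paired subunits (log axes) in each of the 11 brain regions, with exact 95% intervals and a dashed line for the whole section. Grin2a over Grin2b is lowest in region 4 (0.491), Gria1 over Gria2 peaks in region 11 (4.11), and Gabbr1 over Gabbr2 peaks in region 7 (1.96).

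In the heart section receptor genes were compared across regions with the yardstick of olfactory and vomeronasal receptor genes. Kept heart spots were grouped in the same way, a step added after the data were seen, and gave 6 regions. Of the receptor genes with at least 20 CPM in heart, 19 are described. Their median fold over other heart spots was highest in region 5, led by the globin genes Hba-a1 and Hbb-bt, at 2.62 (lowest gene 1.86, highest 3.15). The yardstick was 2.65-fold there and the cardiomyocyte list 0.332 times. In region 6, led by the atrial genes Myl7 and Sln, the median was 1.51 (1.25 to 2.27), beside 1.49 for the yardstick and 0.579 for the cardiomyocyte list. None of the 19 was under 1 in either region. In region 1, led by Col2a1, and region 2, led by Timp4 and Ppp1r3c, all 19 were under 1, with medians of 0.546 and 0.611 beside 0.526 and 0.595 for the yardstick. The cardiomyocyte list was 0.974 and 1.32 times other spots in these. Regions 3 (Dnah7c) and 4 (Lrtm1 and Myh11) had medians of 1.27 and 1.18, beside 1.34 and 1.25 for the yardstick, and 1 of the 19 was under 1 in region 3 (0.954). Relative to the yardstick's density in the same region, the median of the 19 lay between 1.13 and 1.22 in all 6 regions.

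By the 1.5-fold rule used in brain, region 5 had 31 of 33 receptor genes higher (47.9% of 10293 features) and 1 lower (12.4%). Region 6 had 20 of 33 higher (38.6% of 9075 features) and 1 lower (5.26%). In region 1, 0 of 29 were higher (0.819% of 7810 features) and 26 lower (43.1%), and in region 2, 0 of 29 were higher (0.0377% of 7963) and 20 lower (21.8%). Region 3 had 4 of 31 higher (11.0% of 8608) and 0 lower (0.860%), and region 4 had 1 of 30 higher (0.837% of 8009) and 0 lower (0.974%).

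**Figure D5:**
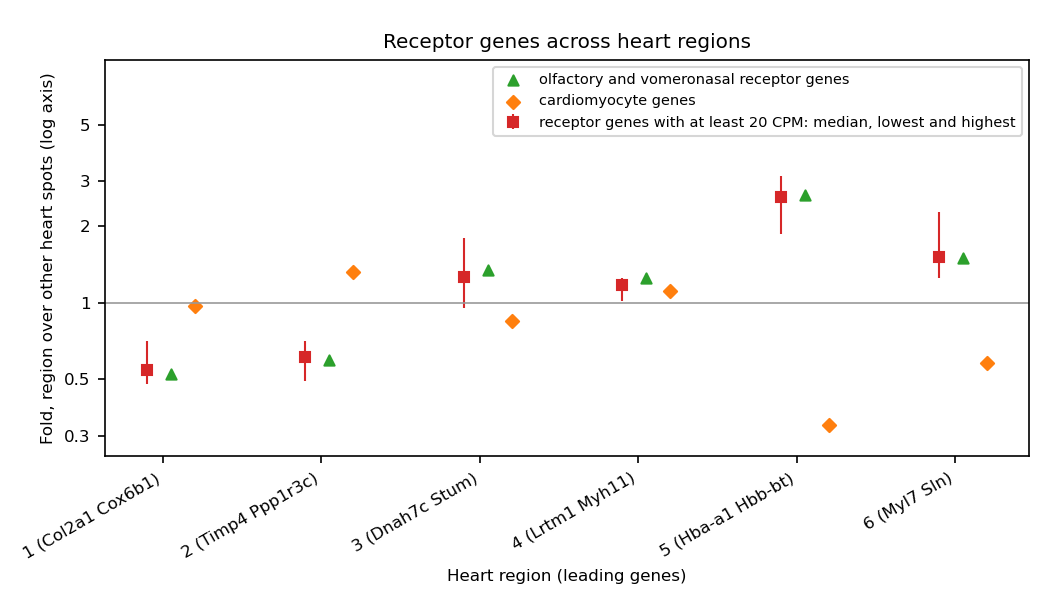
Fold of each heart region over the other heart spots (log axis) for 19 receptor genes with at least 20 CPM in heart (red, median with bars to the lowest and highest gene), olfactory and vomeronasal receptor genes (green) and the cardiomyocyte list (orange). The red medians lie beside the green points in every region, highest in region 5 (2.62 and 2.65), where the cardiomyocyte list is lowest (0.332).

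Genes that work with the receptors were read in 8 lists of 67 genes. By the size rule 40 of the 67 were higher in brain and none higher in heart, and 55 of the 67 reached 20 CPM in a section. Of the 6345 features that reached 20 CPM in a section, 17.2% were higher in brain and 5.41% in heart. Of the AMPA and kainate auxiliary subunits, which traffic and gate the channels, 10 of 14 were called (median log2 ratio 2.89), with Shisa6 at 248 and 40.4 CPM, Shisa9 at 238 and 26.9 and Neto1 at 129 and 9.15. Of the excitatory scaffold genes 11 of 18 were called (2.42), among them Dlg2 (2118 and 301 CPM), Nlgn1 (1504 and 84.7) and Dlgap1 (1267 and 293.5). Shank3 had similar levels, 63.7 and 59.5 CPM.

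For glutamate release and uptake 6 of 9 were called (2.71). Slc1a2, the main astrocyte glutamate transporter, had 881 and 13.7 CPM, a ratio of 64.2 (59.3 to 69.7). Of the inhibitory scaffold genes 5 of 8 were called (2.66), with Nlgn2 at 57.2 and 4.93 CPM, while Gphn, which encodes gephyrin, had 439 and 282 CPM and was not called. For GABA synthesis, release and uptake 4 of 7 were called (3.40), among them Gad2 (81.3 and 7.71 CPM), Abat (77.6 and 17.8) and Gad1 (73.3 and 5.11). The GABA-B auxiliary list had 2 of 4 called (1.80), led by Kctd16 at 436 and 29.3 CPM. Of 2 chloride transporters, Slc12a5, which keeps neuronal chloride low, was called (121.6 and 4.26 CPM) and Slc12a2 was not (71.2 and 24.2 CPM).

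The glycine receptor list had 1 of 5 called, the beta chain Glrb, with 82.0 and 8.09 CPM. Its median log2 ratio was 0.45, close to that of all features. The alpha chains Glra1, Glra2 and Glra3 had ratios of 1.33, 1.37 and 1.52, which became 0.869, 0.897 and 0.994 with ribosomal, mitochondrial and small structured RNA left out of the totals. In brain they stood at 1.92, 1.88 and 2.26 times the background density, so Glra3 alone of these exceeded 2 times.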

How the data were processed

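The deposited values are counts per feature and spot barcode, 1 library each from brain and heart. Per the submitters' processing notes the authors used STARsolo and mm39; the version, and whether molecular tags were merged, introns counted or strand used, is not given in the sources used here. Counts were summed over spots with at least 500 counts and 200 features and scaled to 1000000 kept counts (CPM), from 37143546 in brain and 44613867 in heart. The exact 95% intervals, Poisson for a level and conditional binomial for a ratio, treat every count as its own molecule. Spans and exon lengths came from GENCODE release 21 (GRCm38), looked up by gene ID for 35551 features. Overlaps between genes were read from the coordinates of that release. Brain spots were grouped with scanpy 1.11.5 and leidenalg 0.10.2 (20 principal components, 15 neighbours, resolution 0.6, seed 1). For shares of spots, each spot with at least 2800 counts was thinned to 2800 and shallower spots were left out. This kept 3060 of 4080 spots in brain and 2939 of 3726 in heart. Spot positions were not used here. Size and region rules were tested on simulated data. Doublets were not called, since a spot holds several cells.

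The receptor genes and lists were chosen with earlier results of these data known. Named were receptor genes with at least 20 CPM in a section, up to 4 per region and direction, and the highest genes of each partner list, plus exceptions stated. Protein stretches that this rule also listed are not printed, and some genes it lists are not reported here. Alternatives varied the totals, spots, weights, thresholds, lengths and resolution.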

Additional observations from a re-analysis of the deposited data

Results flagged for a closer look

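Barcodes under the spot threshold, which no comparison uses, also held counts of receptor genes. In the brain library 912 such barcodes held 1450 of these counts among 156957 counts, and in the heart library 1266 barcodes held 462 among 154831.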

How the results depend on the processing

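No paired analysis was possible because each tissue had 1 library and nothing pairs them. The number of receptor genes higher in brain was 25 and ran from 17 (at least 8-fold) to 32 over 9 alternatives, and none was higher in heart under any of them. Genes higher in at least 1 brain region ranged from 24 to 38 and lower from 35 to 39 over 6 alternatives. With ribosomal, mitochondrial and small structured RNA outside the total, 7 excitatory scaffold and 1 GABA-B auxiliary genes were higher in brain, and the ratios of Glra1 (0.869), Glra2 (0.897) and Glra3 (0.994) turned. At 8-fold, 6 auxiliary, 6 excitatory scaffold, 3 glutamate release and uptake, 3 inhibitory scaffold and 1 GABA-B auxiliary genes were called, 24 over all lists; and at 2-fold 2 chloride transporters. GABA-B auxiliary calls were also 1 with equal weight for each spot and 1 at 50 CPM. Equal weight turned Grin3b to 1.30, and subtracting the background density turned Gabrr3 to 1.04. By gene span, chosen after seeing the data, 5 of the 10 genes highest per kb of exon and 4 of 12 family leaders stayed. At resolution 0.3 (7 regions in place of 11) Grin2c was at 0.722 in the group nearest region 5. Region 10 had no like group there: the nearest shared 0.0595 of the spots in either, and its Gabra2 (0.811) and Grik3 (1.38) describe other spots. Gabrg1 was at 0.889 in the group nearest region 2 among spots with at least 1000 counts. Apart from the changed totals, thresholds and region borders, the cause was not tested. Counts are few for genes under 20 CPM and in the shallow region 2.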
